A study of Mus musculus with 12 samples.

Results

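The genes described here encode proteins that sense stalled replication and broken DNA and repair it: checkpoint kinases and their adaptors, the Fanconi anemia pathway, homologous recombination, RecQ helicases, mismatch repair and excision repair. They were chosen by gene name, from a list of name stems and single names, among the genes that the authors listed as changed. The rule sets aside by name a Fanconi anemia gene that its stems would take, and counts of rule genes leave it out. The rule was drawn up with earlier results of these data known, so the choice may not have been blind to direction. The rule found 37 genes of the 2491 gene names listed in either of 2 tables, and all 37 came from the neural progenitor table, with 0 from the fibroblast table. The annotation holds 68 gene names that match the rule, of which 67 are protein-coding, so 31 names were not listed in neural progenitors.

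The study made 12 RNA libraries, 3 for each of 4 groups: neural progenitor cells (NPC) and mouse embryonic fibroblasts (MEF), each with ethanol or 4-hydroxytamoxifen (4-OHT). Every group, the ethanol controls included, had the genotype Prmt5 F/FER on a mixed C57BL/6 and 129S1/SvlmJ background and came from E14.5 embryos. In these cells 4-OHT at 50 nM for 24 h is used to delete Prmt5, which encodes an arginine methyltransferase that modifies Sm proteins of the spliceosome. NPC were cortical neurospheres grown with EGF and FGF and treated at day 4, and MEF were primary cells of passage 1 grown to confluence. The labels give the inducible element only as ER and name no promoter that drives it. No group had 4-OHT without the conditional allele, and the effects of 4-OHT and of Prmt5 loss cannot be told apart. The labels do not say whether replicates came from separate cultures or embryos, so the p-values may measure technical spread only.

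The deposited expression tables hold 1 RPKM value (reads scaled to transcript length and library size) for each arm, with a Cuffdiff p-value and a log2 fold change, 4-OHT over ethanol. They list only genes with p under 0.05 and a change of about 1.5-fold or more, and the depth of each library is not given in the sources used here. A gene that is not listed may not have been tested or may have missed either limit, and its level is unknown. Prmt5 itself went from 33.4 to 4.92 RPKM in NPC and from 21.0 to 3.76 RPKM in MEF by the authors' deposited table, in the direction that the labels give.

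Checkpoint signalling starts when single-stranded DNA at a stalled fork recruits the kinase ATR, which activates the effector kinase CHK1 with the help of TOPBP1, claspin and the TIMELESS-TIPIN complex. The Fanconi anemia core complex ubiquitinates FANCD2 and FANCI at crosslinked DNA, and homologous recombination then uses BRCA2 and PALB2 to copy the intact sister strand. Most of these genes are known to be expressed in dividing cells around S phase, and cortical progenitors of the embryo divide rapidly.

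In NPC all 37 listed genes were lower with 4-OHT and 0 were higher. Among all 2416 genes listed in NPC, 1049 were lower, a share of 43.4%. The names were chosen with earlier results of these data known, so the split may rest in part on that choice. Of the other pathway genes that the rule leaves out, 40 were listed as lower and 5 as higher, among them Ercc5, Parp3 and Polk. The comparison with all listed genes is therefore a description. The 37 genes retained between 39.6% and 66.1% of their ethanol level, with a median of 55.9%. Their log2 fold changes ran from -1.33 for Recql to -0.60 for Fancf, with a median of -0.84 and quartiles of -0.91 and -0.73. The median of all 1049 lower genes was -0.77, with quartiles of -0.92 and -0.67, so the size of the fall overlapped that of lower genes in general. Levels with ethanol spanned from 2.20 RPKM for the helicase gene Wrn to 49.2 RPKM for Tipin by the authors' deposited table. The listing leaves out changes under about 1.5-fold, so these medians describe listed genes only. RNA was measured in bulk, so fewer cells of a type and less RNA per cell cannot be told apart.

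**Figure D1:**
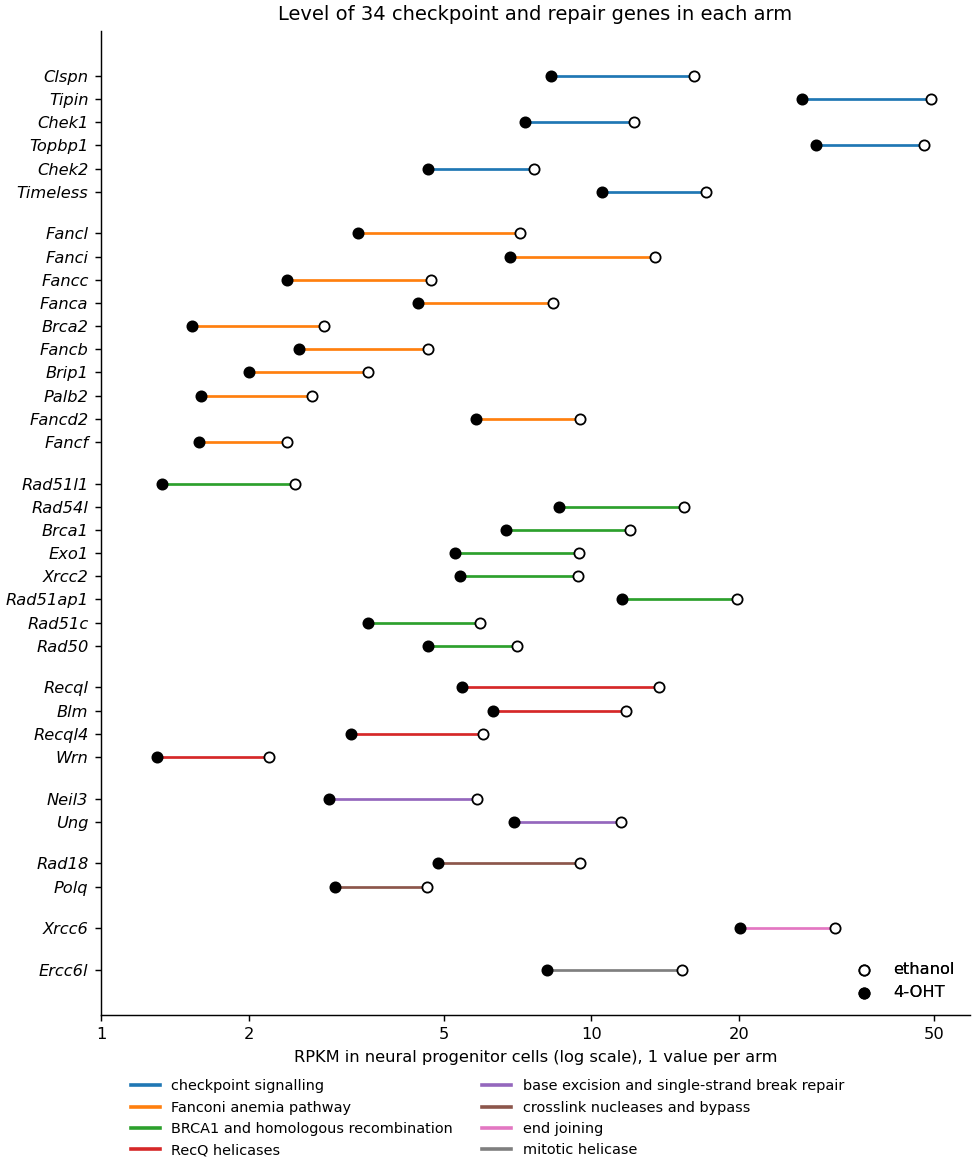
RPKM of 34 of the 37 genes in neural progenitors on a log axis, with ethanol (open points) and 4-OHT (filled points), 1 value per arm and no error, grouped by role (line color). Every filled point lies to the left of its open point, and levels with ethanol run from 2.20 to 49.2 RPKM.

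Of the 67 protein-coding names that match the rule, 37 were listed in NPC, or 55.2%. Across all protein-coding gene names in the annotation 10.7% were listed, a background that also counts genes not expressed in these cells. At 5 RPKM or more with ethanol or 4-OHT, 28 of the 37 genes remained and all 28 were lower. Of all listed genes at that level 60.5% were lower, and the choice of names with results known limits this comparison too. An upper bound on the adjusted p (Benjamini-Hochberg, with all 55341 annotated gene names counted as tested) was under 0.05 for 35 of the 37 genes, or 94.6%, against 79.6% of the 1049 lower genes. Of all listed genes under that bound 46.9% were lower. The exceptions were Fanci and Fancf, with bounds of 0.0868 and 0.371. Recql, Fancl and Neil3 were the 3 genes with a log2 fold change of -1 or below, or 8.11% of the 37, against 17.3% of all lower genes. Of listed genes with so large a change in either direction 21.0% were lower.

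**Figure D2:**
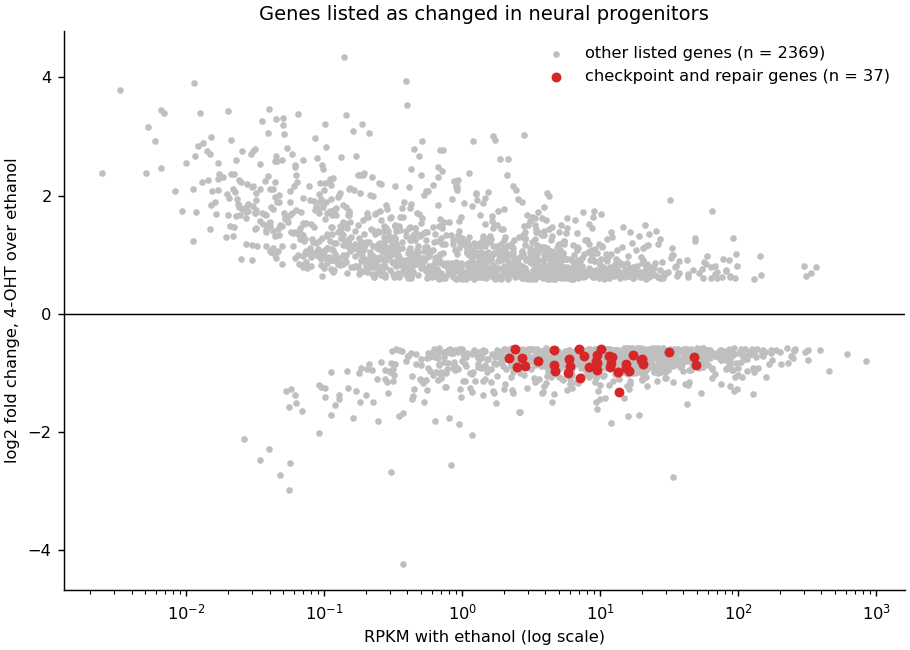
Log2 fold change (4-OHT over ethanol) against RPKM with ethanol on a log axis for the genes listed as changed in neural progenitors, with the 37 checkpoint and repair genes in red and other listed genes in grey. The red points form 1 band below 0, from -1.33 to -0.60, inside the cloud of other lower genes, and the blank strip around 0 is where the authors listed no gene. Genes listed at 0 RPKM with ethanol are not drawn.

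Promoter sequences were taken from RefSeq (GRCm38.p6) because the genes moved together, and 26 of the 37 had an entry, a window of 300 bases from 250 before to 50 after the annotated start. They were searched on both strands for E2F words (TTTCCCGC, TTTCGCGC, TTTGCCGC or TTTGGCGC), for the CHR element TTTGAA and for CCAAT. E2F factors are known as activators of genes for DNA synthesis and repair at the start of S phase, and CHR elements mark many genes expressed later, in G2 and mitosis. An E2F word stood in 6 of the 26 promoters, or 23.1%. It stood in 8.88% of the 822 promoters of genes listed as lower, in 1.54% of the 1039 of genes listed as higher and in 2.32% of all 27025 promoters of this length. In the 25 promoters of proliferation genes listed as lower the share was higher than in the repair genes, 36.0%. The count rests on searching both strands: on the strand of the gene alone 3.85% of the 26 promoters held a word, against 4.26% of lower genes and 24.0% of proliferation genes. The 6 promoters are printed here 5′ to 3′ on the strand of the gene, as a sequence feature that the naming rule did not use, with the E2F word in capitals.

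Clspn (GRCm38.p6, chr4:126556730-126557029, plus strand): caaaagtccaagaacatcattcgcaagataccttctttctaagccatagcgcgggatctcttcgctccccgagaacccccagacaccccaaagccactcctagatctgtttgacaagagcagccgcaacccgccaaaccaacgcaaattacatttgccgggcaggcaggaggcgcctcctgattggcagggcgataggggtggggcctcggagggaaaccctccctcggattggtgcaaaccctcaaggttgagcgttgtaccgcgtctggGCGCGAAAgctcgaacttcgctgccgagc
Topbp1 (GRCm38.p6, chr9:103305077-103305376, plus strand): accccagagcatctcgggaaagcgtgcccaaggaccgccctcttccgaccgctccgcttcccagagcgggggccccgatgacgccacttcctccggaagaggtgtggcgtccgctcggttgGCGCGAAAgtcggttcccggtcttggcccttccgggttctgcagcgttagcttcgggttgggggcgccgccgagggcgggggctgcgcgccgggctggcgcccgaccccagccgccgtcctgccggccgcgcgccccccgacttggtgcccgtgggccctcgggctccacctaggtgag
Chek2 (GRCm38.p6, chr5:110839733-110840032, plus strand): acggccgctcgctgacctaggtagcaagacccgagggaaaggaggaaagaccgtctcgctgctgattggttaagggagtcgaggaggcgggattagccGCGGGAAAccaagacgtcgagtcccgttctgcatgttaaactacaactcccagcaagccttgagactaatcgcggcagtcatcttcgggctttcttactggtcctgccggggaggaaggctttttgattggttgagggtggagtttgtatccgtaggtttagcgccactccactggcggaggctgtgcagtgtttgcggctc
Brca2 (GRCm38.p6, chr5:150522371-150522670, plus strand): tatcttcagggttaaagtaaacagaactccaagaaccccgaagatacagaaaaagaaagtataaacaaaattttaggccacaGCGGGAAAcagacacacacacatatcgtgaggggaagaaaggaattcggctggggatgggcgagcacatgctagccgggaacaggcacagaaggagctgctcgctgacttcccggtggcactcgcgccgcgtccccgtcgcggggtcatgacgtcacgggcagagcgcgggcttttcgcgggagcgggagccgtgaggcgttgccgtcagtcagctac
Rad51c (GRCm38.p6, chr11:87404457-87404756, minus strand): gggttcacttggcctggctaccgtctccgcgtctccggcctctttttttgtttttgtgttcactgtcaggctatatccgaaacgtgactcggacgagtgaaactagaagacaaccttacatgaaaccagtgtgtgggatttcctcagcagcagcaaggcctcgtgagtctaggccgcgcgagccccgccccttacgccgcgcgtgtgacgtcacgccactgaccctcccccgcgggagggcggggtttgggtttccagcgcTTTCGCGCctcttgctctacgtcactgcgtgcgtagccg
Xrcc6 (GRCm38.p6, chr15:82016119-82016418, plus strand): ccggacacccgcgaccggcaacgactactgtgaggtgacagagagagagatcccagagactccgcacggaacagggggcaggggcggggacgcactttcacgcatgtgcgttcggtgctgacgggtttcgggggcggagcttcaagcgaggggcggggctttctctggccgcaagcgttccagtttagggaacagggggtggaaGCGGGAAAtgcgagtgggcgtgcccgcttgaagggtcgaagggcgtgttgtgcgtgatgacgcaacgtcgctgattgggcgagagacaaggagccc

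The capitals read GCGGGAAA or GCGCGAAA, the reverse complement of a searched word, in 5 of the 6 promoters, and TTTCGCGC on the strand of the gene in Rad51c alone. The first capital lay 168 bases before the start in Brca2, 152 in Chek2, 129 in Topbp1 and 46 in Xrcc6. In Clspn and Rad51c it lay after the start, by 21 and 11 bases. The genes with an E2F word had a median log2 fold change of -0.75, from -0.96 to -0.64, and the 20 with an entry but no word had -0.86, from -1.33 to -0.60. The ranges overlap, and the median fall was the smaller one in the genes with the word. The CHR element stood in 1 of the 26 promoters, that of Polq, or 3.85%, against 17.5% of promoters of lower genes, 36.0% of those of proliferation genes and 18.1% of all promoters. CCAAT stood in 15 of 26, or 57.7%, against 48.3% of lower genes, 76.0% of proliferation genes and 37.9% of all promoters. On the strand of the gene alone CCAAT stood in 26.9%, against 29.6% of lower genes, so the order of these sets turned. None of the 3 motifs contains another, a match is not a bound site, and a window without one says only that these letters are not there.

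**Figure D3:**
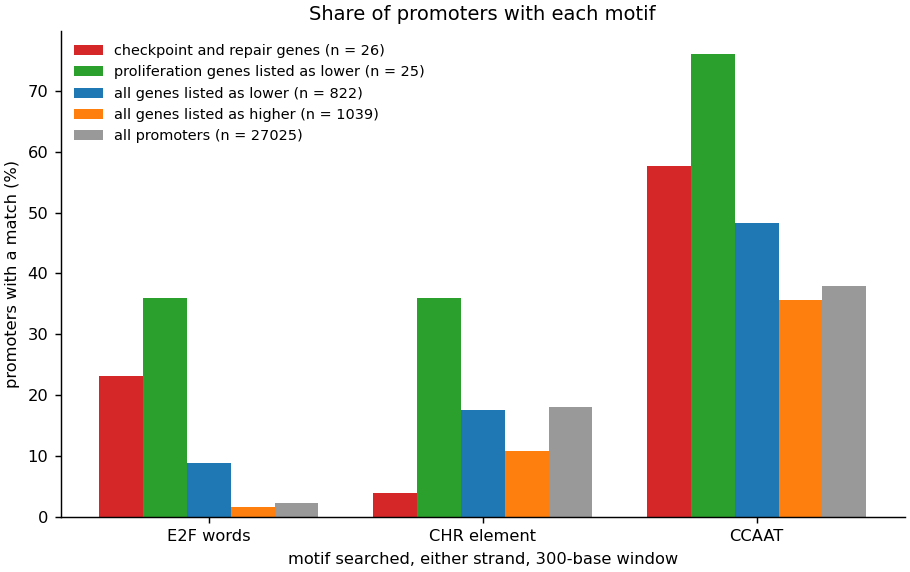
Percent of promoters with at least 1 match on either strand to the E2F words, the CHR element or CCAAT, in the 26 checkpoint and repair genes with an entry, in proliferation genes listed as lower, in all genes listed as lower or higher in neural progenitors, and in all promoters. E2F words are at 23.1% in the first set, 36.0% in proliferation genes and 2.32% in all promoters, while the CHR element is at 3.85%, 36.0% and 18.1%.

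Of 9 names in checkpoint signalling 6 were listed, all lower, with a median of 16.6 RPKM with ethanol. Tipin and Topbp1 had the highest levels of all 37 genes. Tipin, whose protein stabilizes stalled forks, went from 49.2 RPKM with ethanol to 26.9 RPKM with 4-OHT by the authors' deposited table, a log2 fold change of -0.87 with a 95% interval of -1.15 to -0.59. The intervals given here rest on a standard error derived from the deposited p under a normal distribution. Since each listed gene has a p under 0.05, every interval leaves out 0 by construction, and the intervals serve only to show the precision of each change. Topbp1, the activator of ATR, went from 47.6 RPKM with ethanol to 28.7 RPKM with 4-OHT by the authors' deposited table (log2 fold change -0.73, interval -1.0 to -0.46). Clspn, which encodes the CHK1 adaptor claspin, had the largest fall of the group, from 16.2 RPKM with ethanol to 8.28 RPKM with 4-OHT by the authors' deposited table, with a log2 fold change of -0.96 (interval -1.24 to -0.69). The smallest was that of Timeless, the partner of TIPIN, from 17.1 RPKM with ethanol to 10.5 RPKM with 4-OHT by the authors' deposited table, with -0.71 (interval -1.0 to -0.41). The effector kinases were close to each other in the size of their fall. Chek1 went from 12.2 RPKM with ethanol to 7.32 RPKM with 4-OHT, and Chek2 from 7.65 to 4.64 RPKM, by the authors' deposited table, with log2 fold changes of -0.74 and -0.72. Atr, its partner Atrip and the clamp loader gene Rad17 were not listed, so the level of the upstream kinase cannot be set beside that of its effectors.

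Of 13 names in the Fanconi anemia group 10 were listed, all lower, from low starting levels with a median of 4.67 RPKM with ethanol. The group had a median log2 fold change of -0.88. Fancl, which encodes the ubiquitin ligase of the core complex, had the largest fall, from 7.15 RPKM with ethanol to 3.34 RPKM with 4-OHT by the authors' deposited table, with a log2 fold change of -1.10 (interval -1.53 to -0.66). Of the other listed core complex genes, Fancc, Fanca and Fancb had log2 fold changes by the authors' deposited table of -0.97, -0.91 and -0.87, and Fancf had the smallest fall of the group. Fancf, which encodes a core adaptor, stood at 2.39 and 1.58 RPKM by the authors' deposited table, and its log2 fold change of -0.60 (interval -1.07 to -0.12) had the highest p of the 37 genes, 0.0143. The pair that the core complex ubiquitinates had overlapping intervals, the one of Fanci being the widest of all 37 genes. Fancd2 went from 9.47 RPKM with ethanol to 5.80 RPKM with 4-OHT by the authors' deposited table, with a log2 fold change of -0.71 (interval -0.99 to -0.42). Fanci was at 13.5 and 6.82 RPKM by the authors' deposited table, with -0.99 and an interval of -1.64 to -0.34.

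The genes that link the Fanconi pathway to recombination were low and fell by similar amounts. Brca2, a mediator of strand exchange, went from 2.85 RPKM with ethanol to 1.53 RPKM with 4-OHT, and its partner gene Palb2 from 2.70 to 1.6 RPKM, by the authors' deposited table. Brip1, which encodes a helicase bound to BRCA1, went from 3.51 RPKM with ethanol to 2.01 RPKM with 4-OHT by the authors' deposited table. The log2 fold changes of these genes were -0.89, -0.76 and -0.81 by the authors' deposited table. The names not listed were Fance, Fancm and Fancd2os, the last a gene on the opposite strand of Fancd2. The Fanconi anemia gene that the rule sets aside is not counted in this group, so the account of the pathway is not complete.

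Of 17 names in the BRCA1 and recombination group 9 were listed, again all lower, with log2 fold changes from -0.90 to -0.60 and a median of -0.84. Rad51ap1, which promotes strand pairing, went from 19.8 RPKM with ethanol to 11.5 RPKM with 4-OHT, and the DNA translocase gene Rad54l from 15.5 to 8.59 RPKM, by the authors' deposited table. Brca1, which promotes resection of DNA ends, went from 12.0 RPKM with ethanol to 6.70 RPKM with 4-OHT by the authors' deposited table, a log2 fold change of -0.84 (interval -1.11 to -0.57). Exo1, a nuclease of resection and mismatch repair, fell by nearly the same factor, from 9.45 RPKM with ethanol to 5.28 RPKM with 4-OHT by the authors' deposited table.

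The paralog genes Rad51l1 (now Rad51b), Xrcc2 and Rad51c had log2 fold changes by the authors' deposited table of -0.90, -0.80 and -0.76. Rad51l1 was the lowest in level, at 2.49 and 1.33 RPKM by the authors' deposited table, with the largest change of the group and a wide interval, -1.38 to -0.43. Rad50, a subunit of the complex that binds broken ends, had the smallest fall, from 7.05 RPKM with ethanol to 4.65 RPKM with 4-OHT by the authors' deposited table, with -0.60 (interval -0.89 to -0.31). The paralog genes Rad51d and Xrcc3 were not listed, nor was Bard1, the obligate partner of BRCA1.

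RecQ helicases unwind recombination and replication intermediates, and 4 of 6 names were listed, all lower. Recql had the largest log2 fold change of the 37 genes, -1.33 (interval -1.70 to -0.97), and went from 13.8 RPKM with ethanol to 5.46 RPKM with 4-OHT by the authors' deposited table. Among all 1049 lower genes it ranked 57th by the size of the fall. Blm, the helicase that dissolves double Holliday junctions, went from 11.8 RPKM with ethanol to 6.28 RPKM with 4-OHT by the authors' deposited table (log2 fold change -0.91, interval -1.19 to -0.62). Recql4 and Wrn had log2 fold changes by the authors' deposited table of -0.89 and -0.76. The interval of Recql overlapped those of 32 of the 36 other genes, among them the 3 other listed RecQ genes. Recql was singled out here for its value, so the gap is a description and was not tested. Recql5 and the opposite-strand gene Recql5os1 were not listed.

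**Figure D4:**
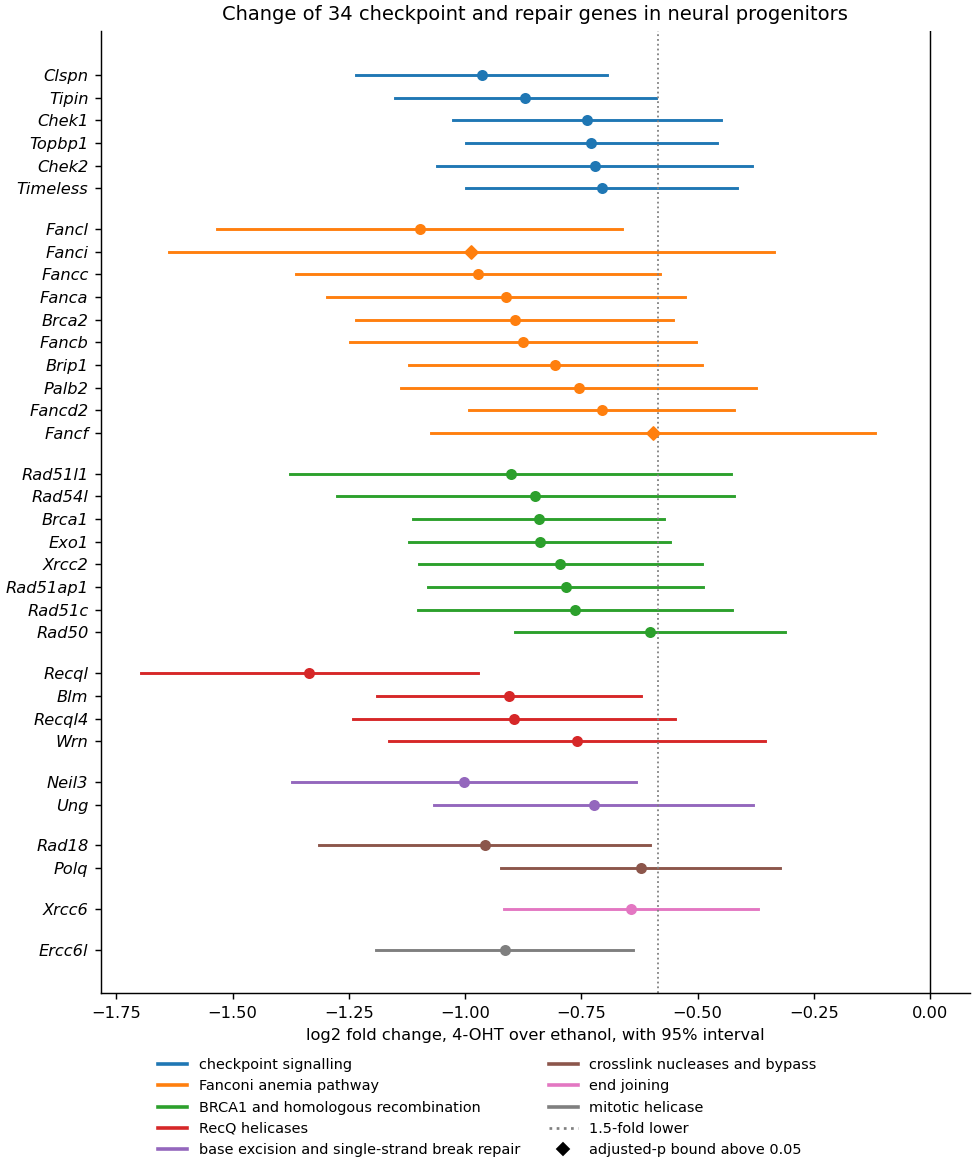
Log2 fold change (4-OHT over ethanol) of 34 of the 37 genes in neural progenitors, with a 95% interval from the derived standard error, grouped by role. Listing needed a p under 0.05, so every interval built from that p had to lie below 0, which adds no support for a fall. Recql is farthest left at -1.33, and the diamonds mark Fanci and Fancf, whose adjusted-p bounds are above 0.05.

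In base excision and single-strand break repair 2 of 6 names were listed. The glycosylase gene Neil3, known for its expression in proliferating cells, went from 5.85 RPKM with ethanol to 2.92 RPKM with 4-OHT by the authors' deposited table, a log2 fold change of -1.0 (interval -1.37 to -0.63). The uracil glycosylase gene Ung went from 11.5 RPKM with ethanol to 6.95 RPKM with 4-OHT by the authors' deposited table, with -0.72 (interval -1.07 to -0.38). The genes for Parp1, Parp2, Tdg and Xrcc1 were not listed.

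The other listed genes have separate roles. Rad18, the ubiquitin ligase that marks PCNA for lesion bypass, went from 9.46 RPKM with ethanol to 4.87 RPKM with 4-OHT by the authors' deposited table (log2 fold change -0.96, interval -1.31 to -0.60). Polq, the polymerase of microhomology-mediated end joining, went from 4.62 RPKM with ethanol to 3.0 RPKM with 4-OHT by the authors' deposited table (-0.62, interval -0.92 to -0.32). Of the classical end joining genes Xrcc6, which encodes KU70, was listed, from 31.3 RPKM with ethanol to 20.1 RPKM with 4-OHT by the authors' deposited table, with -0.64 (interval -0.92 to -0.37). Xrcc5, which encodes its partner KU80, and Xrcc4 were not listed. Ercc6l encodes PICH, a translocase of anaphase DNA bridges rather than an excision repair factor, and went from 15.3 RPKM with ethanol to 8.13 RPKM with 4-OHT by the authors' deposited table (-0.91, interval -1.19 to -0.64). Dclre1a, Dclre1b, Ercc1 and Poln were not listed.

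The error of the change depended on level, as the plot of derived standard errors shows. Across the 37 genes the standard errors ran from 0.138 to 0.332 with a median of 0.161, and their Spearman correlation with the ethanol level was -0.62, where all 1049 lower genes had -0.80. The log2 fold change did not follow the level in the 37 genes (Spearman rho -0.02), where all lower genes had a rho of 0.23. These correlations are across genes of the same libraries and are given as a description. Fanci stood apart with a standard error of 0.332 at 13.5 RPKM, where Recql at 13.8 RPKM had 0.185 and Chek1 at 12.2 RPKM had 0.147. Rad54l, with 0.218 at 15.5 RPKM, compared with 0.141 for Ercc6l at 15.3 RPKM.

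Some of these genes share their DNA with a gene on the other strand, and the kit that the labels name, TruSeq RNA v2, does not mark strand. By the GENCODE annotation of GRCm38, 19 of the 37 genes overlap a gene on the opposite strand, and 11 overlap a protein-coding one. Reads from the overlapping stretch could not be told apart, so the levels of these 11 are less certain. Among them were Fancl (with Vrk2), Fanci (Polg), Fancc (2010111I01Rik), Fanca (Zfp276 and Gm20388), Fancd2 (Fancd2os), Fancf (Gas2), Rad54l (Lrrc41), Recql (Pyroxd1), Recql4 (Mfsd3) and Xrcc6 (Desi1). Fanci and Rad54l, the genes with a large error for their level, are in this set, and so are Recql and Fancl, which had the largest falls. The part of the overlap in these values was not tested.

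**Figure D5:**
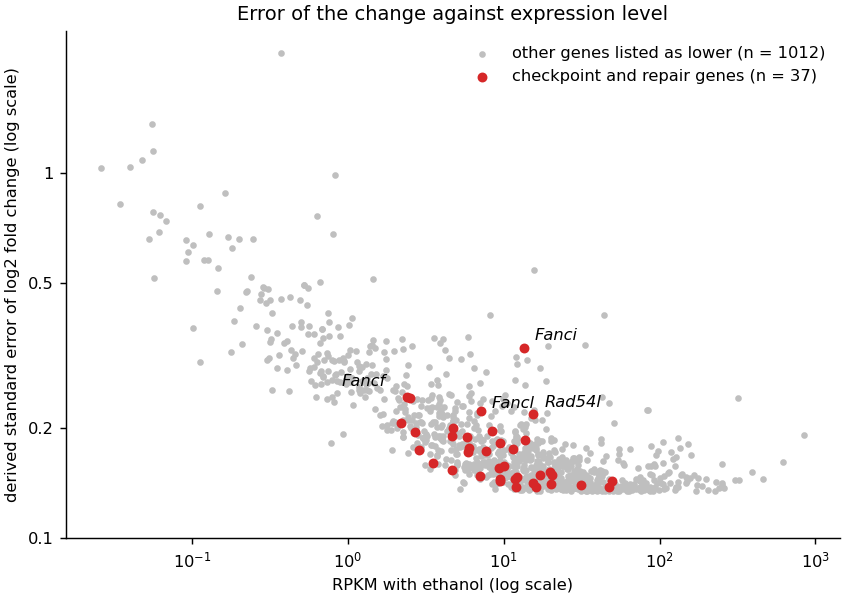
Standard error of the log2 fold change, derived from the deposited p, against RPKM with ethanol, both on log axes, for the 1049 genes listed as lower in neural progenitors. The 37 checkpoint and repair genes (red) follow the slope of the other genes (grey), and Fanci, at 0.332, lies above genes of like level.

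Other genes of the same pathways, from a list of 112 that the rule does not take, moved mostly the same way in NPC. Of the list 45 were listed, 40 lower and 5 higher, where 43.4% of all genes listed were lower. The median log2 fold change of the lower ones was -0.76. The lower ones included the single-strand binding genes Rpa1, Rpa2 and Rpa3, with log2 fold changes by the authors' deposited table of -0.62, -0.63 and -0.60. Atm, the kinase gene for double-strand breaks, had -0.82, and H2afx, which encodes the histone that it marks, had -0.77 by the authors' deposited table. Usp1, which encodes the deubiquitinase of FANCD2, went from 45.4 RPKM with ethanol to 23.5 RPKM with 4-OHT, and Ube2t, the ubiquitin-conjugating partner of FANCL, from 12.2 to 7.78 RPKM, by the authors' deposited table. Fancl, Ube2t and Usp1, which write or erase that ubiquitin mark, were thus all listed as lower. Fance and Fancm of the Fanconi anemia group were not listed, so the statement does not cover the whole pathway. The 5 higher genes were Ercc5, Mgmt, Parp3, Polk and Rev1, with log2 fold changes by the authors' deposited table of 1.26, 1.16, 1.14, 1.06 and 0.82. Ercc5 encodes an excision repair nuclease, and Polk and Rev1 encode bypass polymerases.

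Genes of proliferation were lower along with them. Of 35 such genes 30 were listed in NPC and all 30 were lower, with a median log2 fold change of -0.79, and their summed level went from 1760 to 986 RPKM. Of 27 p53 targets 16 were listed and all 16 were higher, with a median log2 fold change of 1.30. Of all genes listed in NPC 43.4% were lower and the rest higher, and 10.7% of protein-coding gene names were listed. Both lists were chosen with earlier results of these data known, so these counts are a description. The defining progenitor genes gave 1 of 8 listed, Hes5, from 15.8 RPKM with ethanol to 4.77 RPKM with 4-OHT by the authors' deposited table, and the other 7, such as Nes and Sox2, were not listed. Of 7 astrocyte and oligodendrocyte markers 5 were listed, all higher, with a summed level of 6.58 RPKM with ethanol and 21.6 RPKM with 4-OHT. Of 7 neuron markers 3 were listed, 2 of them higher, with sums of 6.14 and 10.5 RPKM. Most of these sums was Tubb3, from 4.81 RPKM with ethanol to 9.59 RPKM with 4-OHT by the authors' deposited table. Snap25 was lower, at 1.30 and 0.77 RPKM, and Stmn2 was barely expressed, at 0.032 and 0.108 RPKM, by the authors' deposited table. Of these 3 only Tubb3 had an adjusted-p bound under 0.05. Immune markers gave 2 of 6, with sums of 0.894 and 2.0 RPKM. Endothelial markers gave 2 of 5, with sums of 0.146 and 0.258 RPKM, and fibroblast markers 0 of 7. The immune and endothelial levels were low. Neither endothelial gene had an adjusted-p bound under 0.05, and of the immune genes only H2-Ab1 did. Defining markers that did not change are not in these tables, so the labelled cell types could not be checked against them. Pcna stands in both the pathway and the proliferation list, and Polk in both the pathway and the p53 list. The part of these genes and cells in the lower levels of the 37 genes was not tested.

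In MEF 0 of the 37 genes, and 0 of the 68 names that match the rule, were listed by Cuffdiff with an unadjusted p under 0.05 and a change of about 1.5-fold. Only 0.493% of all protein-coding gene names were listed in MEF, so a count of 0 says little about these genes. Of the 112 other pathway genes 0 were listed as well. Of the 35 proliferation genes 8 were listed in MEF, all lower, where 49.5% of all 111 listed genes were lower. The unadjusted Cuffdiff p of these 8 ran from 0.0099 for Tk1 to 0.047 for Aurkb. With the adjusted-p bound used for NPC, 0 of the 8 were under 0.05, so a fall of these genes in MEF is uncertain. Whether the change differed between cell types could not be tested, because that needs values in both tables.

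The splicing tables held no event of these genes. They list 255 events in 222 genes in NPC and 71 events in 61 genes in MEF, and 0 of them belong to any of the 68 names, matched by Ensembl identifier. Listed events had to pass a p and a difference in inclusion, so an event of these genes below those limits would not appear. Of all protein-coding genes in the annotation 1.0% had a listed event in NPC and 0.274% in MEF, so a count of 0 among 68 names says little about these genes. The Fanconi anemia gene that the rule sets aside is not among the 68 names, so the count does not cover it.

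The 37 genes often lie head to head with another gene, a feature of position that the rule did not use. By the GENCODE annotation of GRCm38, 15 of the 37, or 40.5%, have the start of a protein-coding gene on the opposite strand within 1000 bases of their own. The share was 20.5% of the 1011 genes listed as lower with a position, 4.27% of the 1335 listed as higher and 10.9% of all 21924 protein-coding genes. Of the 15 partners 1 was listed, or 6.67%, against 16.4% of the 207 partners of all lower genes and 11.3% of the 2379 partners of all protein-coding genes, so most neighbors in any of these sets were not listed. The listed partner was Gas2, which also overlaps Fancf, at 3.82 and 1.53 RPKM by the authors' deposited table, with a log2 fold change of -1.32. The other 14 were not listed, among them Nbr1 beside Brca1 at 194 bases, Golt1b beside Recql at 134 bases, Emc3 beside Fancd2 at 30 bases and Hscb beside Chek2 at 202 bases. A neighbor that is not listed was not shown to be unchanged.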

How the data were processed

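Per the submitters' processing notes, base calls came from CASAVA 1.8, the aligners were TopHat2 2.03 and Bowtie2 2.0.0.6 on mm9, and arms were compared with Cuffdiff 2.02. Per the file headers, the authors deposited 1 RPKM value for each arm. The authors also deposited an unadjusted p-value and a log2 fold change, which recomputation from RPKM matched. The pooled values give no spread between libraries and no depth.

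Members were taken by name, without the Fanconi anemia gene that the rule sets aside. The members and gene lists were chosen with earlier results of these data known. Genes were taken as listed, and no test was run on the list. The standard error is the absolute log2 fold change divided by the normal quantile of the deposited p, and 95% intervals follow from it. The Benjamini-Hochberg bound counts 55341 annotated gene names as tested, which unlisted genes can only lower. Both steps were run on simulated data made under the same normal model. That run checks the arithmetic and cannot show that the model holds for these libraries. The planned tests of splicing events and of cell types had no member to run on. Within each role, genes with the highest level, the largest fall and the smallest change are given in full, and others by their change. Of 2491 listed names, 2468 matched the GRCm38 annotation, 215 of them as older symbols. Of the 37 genes, 3 are not reported here by name. Rows with comma-joined names were split. Promoters came from RefSeq GRCm38.p6, and no coordinates of mm9 were used with them. Analysis used Python 3.11.15, pandas 2.3.3, scipy 1.17.1 and matplotlib 3.10.9.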

Additional observations from a re-analysis of the deposited data

How the results depend on the processing

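The count of 37 lower genes in NPC was 37 at 1 RPKM or more and with single gene names, 36 with a deposited p under 0.01, 35 under the adjusted-p bound and 28 at 5 RPKM or more. It was 3 for absolute log2 fold changes of 1 or more. The counts of higher genes in NPC and of listed genes in MEF were 0 under each of these settings. The median log2 fold change of -0.84 was -0.83 with a pseudocount of 0.1 and -0.71 with 1. Relative to the median of all listed genes, 0.66, it was -1.5. More genes were listed as higher than as lower, so that median is not a baseline of unchanged genes. On the strand of the gene alone, E2F words stood in 1 promoter rather than 6 and CCAAT in 7 rather than 15. The shares then fell to 3.85% and 26.9%, under the 4.26% and 29.6% of all lower genes, whereas with both strands they were above them. The CHR count stayed at 1. No paired analysis was possible because the expression tables hold 1 pooled value for each arm, and no replicate could be left out for the same reason. The settings planned for splicing events and for the difference between cell types were not run, since no gene of the rule has an event or a value in MEF.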
